A study of Mus musculus with 2 samples.

Results

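The cells described here are natural killer (NK) cells from mouse tumours that carried at least 2 UMIs (unique molecular identifiers, each counting 1 captured RNA molecule) over the genes Sult2b1, Dhrs3 and Serpinb6b. Barcodes with at least 200 genes and at most 10% mitochondrial UMIs were kept. A kept barcode was gated as an NK cell when it had at least 1 UMI of Ncr1 or Klrb1c, at least 3 of Nkg7, none of Cd3d, Cd3e, Cd3g or Csf1r, and under 5 UMIs of the C1q genes per 10000. Of 1960 gated NK cells, 1105 met the 3-gene condition and are called member cells below. They were 782 of 1237 gated NK cells in the library labelled Ythdf2 cKO and 323 of 723 in the library labelled WT, out of 9865 and 12179 kept barcodes. The remaining 455 and 400 gated NK cells, with 0 or 1 UMI of the 3 genes, serve as the comparison within each library.

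Immune cells positive for CD45, the surface protein shared by leukocytes, were sorted from tumours of C57BL/6 mice and loaded on a droplet system that reads transcripts from the 5′ end. One library came from mice with a conditional knockout (cKO) of Ythdf2, which encodes a cytoplasmic protein that binds m6A-modified RNA and speeds its decay, and 1 from WT mice. The labels do not state which Cre driver removed the gene, which tumour was grown, the age of the mice or how many were pooled, and the series title places the interest in tumour-associated macrophages. With 1 library per genotype there were no replicates, so no test between genotypes was possible, and genotype and library cannot be told apart. Intervals in brackets are exact 95% limits that cover counting error alone, and levels are in CPM, a gene's UMIs summed over the cells of a group and scaled to the same total in every group.

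NK cells are innate lymphocytes that kill target cells with perforin and granzymes and secrete interferon gamma and chemokines. Their activity is set by the balance of activating receptors such as NKp46, encoded by Ncr1, and inhibitory receptors, among them the Ly49 family encoded by the Klra genes. In tumours, circulating NK cells that express Eomes lie beside tissue-resident group 1 innate lymphoid cells, which carry the integrin CD49a (Itga1). Of the 3 genes that chose the cells, Sult2b1 encodes a sulfotransferase that sulfates cholesterol and other 3-beta-hydroxysterols. Dhrs3 encodes a reductase that converts retinal back to retinol and so limits retinoic acid. Serpinb6b belongs to the clade B serpins, intracellular inhibitors of serine proteases.

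The 3 genes lie on different chromosomes of GRCm38, Sult2b1 at chr7:45729983-45784669 on the minus strand, Dhrs3 at chr4:144892827-144928209 on the plus strand and Serpinb6b at chr13:32965209-32979067 on the plus strand. Their promoters are shown because the 3 transcripts were used together to define the cells. The sequences are RefSeq promoter windows of GRCm38.p6, restricted to bases outside annotated exons of these genes, and capitals mark the 1 motif match found in them.
Sult2b1: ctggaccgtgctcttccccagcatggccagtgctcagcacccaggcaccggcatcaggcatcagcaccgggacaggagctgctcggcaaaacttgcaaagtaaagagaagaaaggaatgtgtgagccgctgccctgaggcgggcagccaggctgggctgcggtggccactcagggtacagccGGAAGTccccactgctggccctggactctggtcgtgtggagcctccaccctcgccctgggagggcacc
Dhrs3: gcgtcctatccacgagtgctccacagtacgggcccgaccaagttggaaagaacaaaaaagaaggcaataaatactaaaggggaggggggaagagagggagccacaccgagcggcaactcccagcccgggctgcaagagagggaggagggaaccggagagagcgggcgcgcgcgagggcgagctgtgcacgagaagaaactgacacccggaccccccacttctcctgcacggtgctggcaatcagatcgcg
Serpinb6b: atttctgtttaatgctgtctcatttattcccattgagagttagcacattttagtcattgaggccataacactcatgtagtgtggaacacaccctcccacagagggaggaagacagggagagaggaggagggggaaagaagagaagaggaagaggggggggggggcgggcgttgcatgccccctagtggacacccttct
They cover chr7:45759613-45759862, chr4:144892577-144892826 and chr13:32965011-32965208. The Sult2b1 window lies inside the annotated span of its gene, before a RefSeq start within that span. The other windows lie before the annotated start of their gene. Sult2b1 has 2 starts in the RefSeq table and Dhrs3 has 3, and 1 of each is shown. Both strands of the 250 bases before each start were searched for 6 motifs of factor families active in lymphocytes or in the retinoid response. The ETS core GGAAGT was found once, in the Sult2b1 promoter, and occurs in 19.9% of 27025 mouse promoters. The T-box core GGTGTGA (3.31% of promoters), the RUNX core TGTGGT (14.2%), the STAT core TTCNNNGAA (7.14%), the retinoid half-site AGGTCA (13.8%) and the MYB core AACNGTT (3.69%) were in none of the 3 windows, so the windows shared none of these motifs.

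The libraries held 121321782 UMIs in 11398 barcodes (labelled cKO) and 128952491 UMIs in 14404 barcodes (labelled WT). The median depth per barcode was 7404 UMIs in the library labelled cKO and 4760 in the library labelled WT. Only 43 barcodes occurred in both libraries, and no member cell was the same barcode in both. Ythdf2 did not mark the library labelled cKO by a lower level. It stood at 65.5 CPM (58.9 to 72.7) in member cells labelled cKO and 50.5 CPM (40.4 to 62.3) in those labelled WT, a log2 ratio of 0.37 (0.03 to 0.73). In macrophages gated from the same libraries it stood at 455 and 78.0 CPM, higher and not lower in the library labelled cKO. The labels do not say which part of the gene was removed, so whether these UMIs lie outside it was not tested, and genotypes are given below as labelled. The paralogs Ythdf1 (54.9 and 46.4 CPM) and Ythdf3 (51.6 and 41.7 CPM) lay at similar levels in member cells.

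The NK identity of member cells was checked on a gene outside the gate. Eomes, a T-box factor of conventional NK cells that the gate did not use, was found in 74.4% of member cells labelled cKO and 65.6% of those labelled WT, at 323 and 292 CPM. Of the genes the gate used, whose presence follows from the choice, Ncr1 was found in 72.5% and 68.1% of member cells, at 278 CPM (265 to 293) and 310 CPM (284 to 337), and Klrb1c (NK1.1) in 93.2% and 85.8%, at 451 CPM in both libraries. Ncr1 was somewhat higher in the other gated NK cells, at 382 CPM (labelled cKO) and 332 CPM (labelled WT). Of the T cell markers, the Cd3 genes were at 0 by the gate, Trac stood at 19.2 and 15.3 CPM, and Trbc1, which NK cells can transcribe in germline form, stood at 730 and 585 CPM. The 13 T cell markers outside the gate summed to 1139 and 944 CPM in member cells, against 4338 CPM in CD8 T cells of the library labelled cKO. Some member cells held Trac, Cd8a or Cd8b1 UMIs. Without them, member cells were 6.72% and not 7.93% of kept cells labelled cKO, and 2.42% and not 2.65% of those labelled WT. Whether the cells with these UMIs were T cells was not tested.

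Myeloid and tumour RNA was present at low levels. The 8 macrophage markers that the gate did not use summed to 98.1 CPM in member cells labelled cKO and 467 CPM in those labelled WT, and to 79.3 and 528 CPM in the other gated NK cells. The 9 melanocytic markers summed to 212 and 1162 CPM in member cells, and most of these UMIs came from few droplets. In the library labelled cKO, 1 droplet of 102400 UMIs held 676 of 723 UMIs of 5 melanocytic genes in member cells, and in the library labelled WT 1 droplet of 72087 UMIs held 1365 of 1520. In the other gated NK cells, 4 droplets labelled WT held 3879 of 4019 such UMIs. Counts of genes without these droplets are given beside those with them.

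Serpinb6b made most member cells members. It supplied 70.9% of the 3 genes' UMIs in member cells labelled cKO and 74.1% in those labelled WT, Dhrs3 supplied 20.5% and 20.3%, and Sult2b1 8.69% and 5.63%. Serpinb6b was found in 92.2% of member cells labelled cKO and 92.3% of those labelled WT. Dhrs3 was found in 56.3% and 48.3%, and Sult2b1 in 27.0% and 16.1%. Cells with Serpinb6b alone were 240 member cells (30.7%) labelled cKO and 141 (43.7%) labelled WT. Cells with Dhrs3 and Serpinb6b were 292 (37.3%) and 113 (35.0%). Only 91 (11.6%) and 18 (5.57%) had all 3 genes, and most member cells were Serpinb6b-positive, with or without Dhrs3. Serpinb6b was also found in 35.4% of other gated NK cells labelled cKO and 27.0% of those labelled WT. Its detection alone therefore does not separate member cells from the comparison cells.

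The levels of the chosen genes in member cells follow from the choice and are given as a description. Serpinb6b stood at 514 CPM (495 to 533) in member cells labelled cKO and 525 CPM (491 to 561) in those labelled WT, against 63.2 and 63.1 CPM in the other gated NK cells. Dhrs3 stood at 148 CPM (138 to 159) and 144 CPM (126 to 163), against 31.4 and 40.3 CPM. Sult2b1 stood at 63.0 CPM (56.5 to 70.0) in member cells labelled cKO and 39.9 CPM (31.0 to 50.6) in those labelled WT, against 6.68 and 5.26 CPM. Between the libraries the log2 ratios were 0.65 (0.28 to 1.06) for Sult2b1, 0.04 for Dhrs3 and -0.03 for Serpinb6b. That of Sult2b1 was 0.35 with 2 of the 3 genes detected, 0.47 with each cell weighted equally and 0.52 with at least 3 UMIs. After thinning it was 0.73.

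At the depth of the deposited data, member cells were a larger share of gated NK cells in the library labelled cKO. They made up 63.2% (60.5 to 65.9) there and 44.7% (41.0 to 48.4) in the library labelled WT, a log2 ratio of 0.50 (0.31 to 0.69). Depth differed in the same direction, since gated NK cells with 5 or more UMIs of the 3 genes had a median of 6517 UMIs (labelled cKO) and 5184 (labelled WT), and those with none had 4987 and 3266. Every kept cell of at least 2746 UMIs was then thinned to 2746 UMIs, and the gate was applied anew to all of them. Of the cells so gated, 342 of 949 (36.0%, 33.0 to 39.2) labelled cKO and 154 of 462 (33.3%, 29.0 to 37.8) labelled WT were members. The log2 ratio at that depth was 0.11 (-0.17 to 0.40), so a difference in share was not detectable in these newly gated cells. Cells outside the gate at full depth could enter it by losing Cd3 or Csf1r UMIs, and how many did was not tested. Thinning left out 19 gated NK cells labelled cKO and 145 labelled WT that were shallower.

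**Figure D1:**
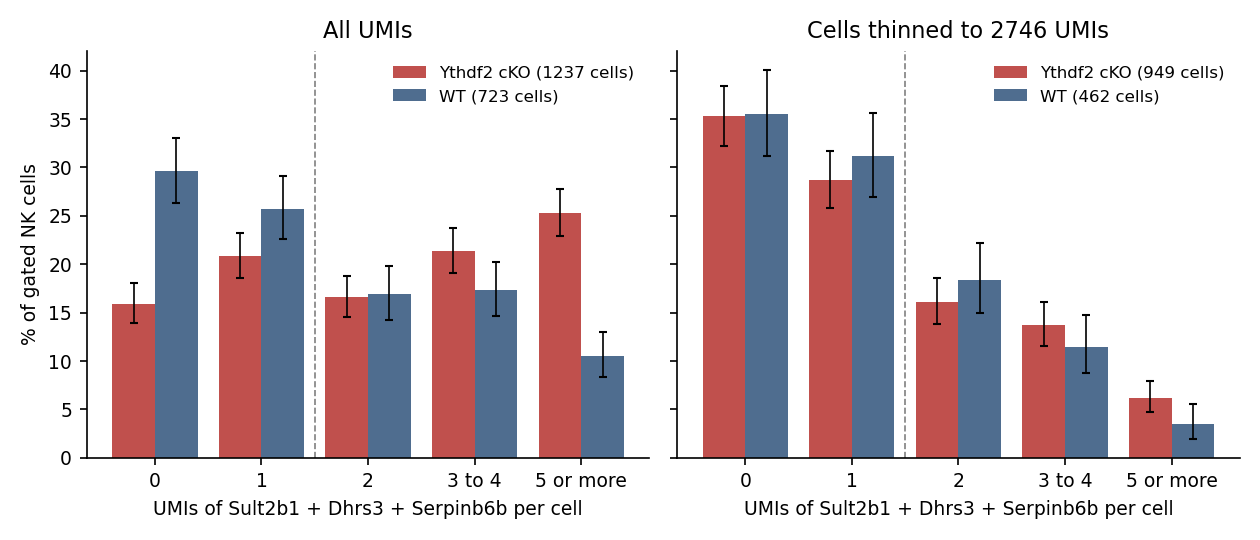
Share of gated NK cells (%, bars, with exact 95% binomial limits) by the UMIs of Sult2b1, Dhrs3 and Serpinb6b per cell, at full depth (left panel) and after thinning to 2746 UMIs (right panel). Cells right of the dashed line are members, which make up 63.2% (labelled Ythdf2 cKO) and 44.7% (labelled WT) of gated NK cells at full depth, and 36.0% and 33.3% after thinning.

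Thinning did not remove every difference between the libraries in the 3 genes. Sult2b1 was found in 18.4% of gated NK cells labelled cKO and 8.44% of those labelled WT at full depth, and in 10.9% and 6.49% after thinning. Dhrs3 was found in 42.0% and 31.1% at full depth and in 24.4% and 23.8% after thinning. Serpinb6b was found in 71.3% and 56.2% at full depth and in 50.3% and 49.4% after thinning. Among all kept cells, member cells made up 7.93% (7.40 to 8.48) in the library labelled cKO and 2.65% (2.37 to 2.95) in the library labelled WT. Most of that gap lay in the gated NK cells as a whole, which were 12.5% and 5.94% of kept cells, and 10.3% and 4.76% after thinning.

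The 3 genes were not particular to NK cells. At least 2 UMIs of them were found in 26.0% of CD8 T cells labelled cKO and 16.4% of those labelled WT, and in 38.3% and 62.8% of macrophages. Macrophages were the deeper cells, with medians of 14005 and 12051 UMIs, and the transcript found in them was mainly Dhrs3, in 52.8% and 77.5% of macrophages. After thinning, 3.21% and 16.8% of macrophages reached the 2 UMIs. Sult2b1 was found in 1.34% and 0.873% of macrophages and in 8.60% and 3.43% of CD8 T cells, and Serpinb6b in 41.8% and 28.2% of CD8 T cells. B cells, which set the background level of free RNA in droplets here, reached the 2 UMIs in 3 of 150 cells (2.0%) labelled cKO and 2 of 214 (0.935%) labelled WT, at median depths of 3519.5 and 2327.5 UMIs. After thinning, 0 of 114 B cells labelled cKO did, which allows a share of up to 2.63%, whereas 36.0% of gated NK cells and 6.37% of CD8 T cells did.

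After thinning, Sult2b1 and Serpinb6b stood higher in cells that had the other chosen genes, beyond their counting limits, in the library labelled cKO, and the intervals overlapped in the library labelled WT. Sult2b1 stood at 57.1 CPM (46.0 to 70.0) in gated NK cells labelled cKO that had a UMI of Dhrs3 or Serpinb6b, against 31.2 CPM (21.2 to 44.3) in those without. Cells labelled WT had 33.7 CPM (22.2 to 49.0) against 12.9 CPM (4.72 to 28.0) of it, with overlapping intervals. Serpinb6b stood at 464 CPM (419 to 512) with a UMI of the other genes against 320 CPM (294 to 348) without, in the library labelled cKO, but at 317 against 331 CPM in the library labelled WT. Dhrs3 stood at 128 against 109 CPM and at 97.9 against 117 CPM.

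When gated NK cells were clustered without the genes of the gate and of the 3-gene condition, all 3 genes were high in 1 cluster. Cluster 3, defined by Itgb3, Cenpa, Plxnc1, Crem, Myb and Cables1, held 206 cells labelled cKO and 42 labelled WT, of which 83.5% (77.7 to 88.3) and 64.3% (48.0 to 78.4) were member cells. Sult2b1 stood there at 125 CPM (106 to 146) in cells labelled cKO and 114 CPM (68.8 to 178) in cells labelled WT. Among the other clusters of over 100 cells it lay between 6.54 and 48.2 CPM in the library labelled cKO and between 3.82 and 36.4 CPM in the library labelled WT. Dhrs3 stood at 220 CPM (194 to 248) and 222 CPM (157 to 307) in cluster 3, against 47.7 to 121 CPM (labelled cKO) and 40.3 to 168 CPM (labelled WT) in the others. Among cells labelled WT its interval in cluster 3 overlapped those of clusters 1, 2 and 7. Serpinb6b stood at 627 CPM (583 to 673) and 517 CPM (414 to 639) in cluster 3. Among cells labelled WT that was not the top level, since cluster 5, defined by Gzma, Selenon and Itgam, had 552 CPM in 45 cells.

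Cluster 3 was not the deepest cluster, with a median of 5562.5 UMIs (labelled cKO) and 4137.5 (labelled WT) per cell. Cluster 6, defined by Gzmc, Krt83, Rora, Cxcr6 and Tmem176a, had 6982 and 4746 UMIs per cell and the lowest Sult2b1 of these clusters, at 6.54 CPM in cells labelled cKO and 3.82 CPM in cells labelled WT. Its share of member cells was 61.9% in the library labelled cKO and 41.9% in the library labelled WT, close to that of all gated NK cells in each library. Cluster 3 held 21.99% of member cells labelled cKO and 8.36% of those labelled WT. Outside it, member cells made up 59.2% (610 of 1031) and 43.5% (296 of 681) of gated NK cells, so the member cells were spread over all 12 clusters. With 206 of its 248 cells from the library labelled cKO, cluster 3 cannot be separated from that library by cell number, but the 42 cells labelled WT had similar levels of Sult2b1 and Dhrs3.

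**Figure D2:**
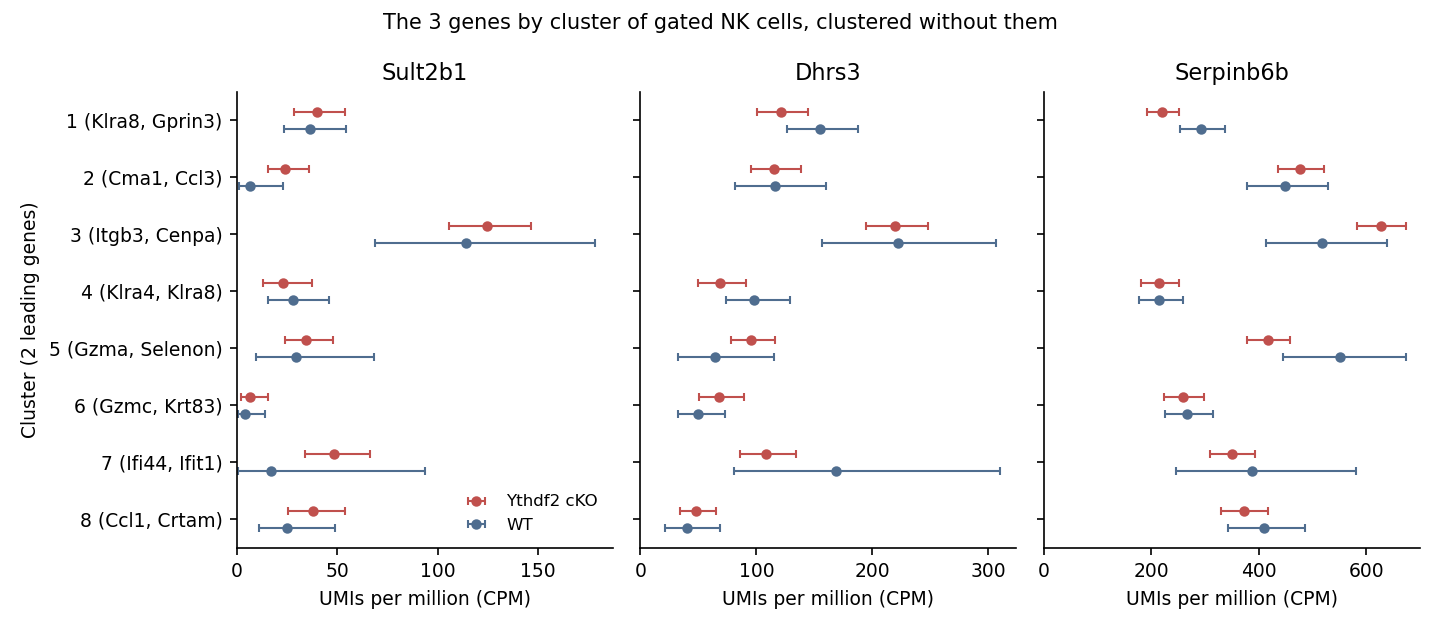
Level of Sult2b1, Dhrs3 and Serpinb6b (CPM, with exact 95% Poisson limits) in the 8 clusters of gated NK cells that held over 100 cells, named by 2 leading genes. Cluster 3 (Itgb3, Cenpa) has the highest Sult2b1, at 125 CPM in cells labelled Ythdf2 cKO and 114 CPM in cells labelled WT, and cluster 6 (Gzmc, Krt83) the lowest, at 6.54 and 3.82 CPM.

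Few genes were past 1.5-fold in the same direction in both libraries when member cells were set against other gated NK cells. A gene counts as measured in a comparison when it had at least 20 CPM in either group and 20 UMIs over both. In the library labelled cKO, 78 of 5886 genes measured (1.33%) were at least 1.5-fold higher and 51 (0.866%) at least 1.5-fold lower in member cells. In the library labelled WT, 153 of 6218 (2.46%) were higher and 332 (5.34%) lower. Leaving out droplets with at least 20 UMIs of melanocytic genes, the lower count in the library labelled WT was 205. Over 5699 genes measured in both libraries, 16 (0.281%) were higher in member cells in both, 2 (0.0351%) were lower in both and 15 (0.263%) were past 1.5-fold in opposite directions. Without the melanocytic droplets these counts were 10, 1 and 5, and without melanocytic or myeloid droplets 15, 4 and 2. All numbers are sizes of difference and not tests, and the genes of the gate and the condition are not counted.

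Itgb3, Cenpa and Myb were at least 1.5-fold higher in member cells in both libraries at full depth. After thinning they were so too, except Cenpa in the library labelled WT. Itgb3 encodes the integrin beta 3 chain, Cenpa the histone H3 variant of centromeres, and Myb a transcription factor of haematopoietic progenitors and lymphocytes. Itgb3 stood at 69.9 CPM in member cells against 31.4 CPM in other gated NK cells in the library labelled cKO, and at 61.0 against 29.2 CPM in the library labelled WT. Its log2 ratios were 1.13 (0.80 to 1.52) and 1.04 (0.56 to 1.58), and 0.79 and 1.59 after thinning. Cenpa stood at 178 against 81.3 CPM in the library labelled cKO and at 170 against 109 CPM in the library labelled WT, with log2 ratios of 1.13 and 0.64, and 1.18 and 0.53 after thinning. Myb stood at 134 against 83.6 CPM and at 109 against 68.3 CPM, with log2 ratios of 0.68 and 0.66, and 0.64 and 1.11 after thinning. Without the melanocytic droplets the log2 ratio of Myb in the library labelled WT was 0.57, just under 1.5-fold. There it was also under 1.5-fold with at least 3 UMIs (0.50), with 2 of the 3 genes detected (0.47) and with both NK markers (0.55). Cenpa in the library labelled WT was 0.46 with at least 1 UMI. Itgb3, Cenpa and Myb are among the genes that define cluster 3, which held 21.99% of member cells labelled cKO and 8.36% of those labelled WT.

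Itgb3, Cenpa and Myb were highest in the cells with most UMIs of the chosen genes. In the library labelled cKO, Itgb3 stood at 24.9, 36.3, 32.2, 59.9 and 98.5 CPM in gated NK cells with 0, 1, 2, 3 to 4, and 5 or more UMIs. Cells labelled WT gave 27.1, 31.9, 35.8, 47.6 and 105 CPM. Cells just inside the threshold, with 2 UMIs, lay close to those just outside it, with 1 UMI. The cells with 5 or more, 313 labelled cKO and 76 labelled WT, lay highest. Over the same 5 groups Myb stood at 72.8, 91.7, 93.4, 109 and 177 CPM in cells labelled cKO, and at 61.5, 77.1, 105, 96.7 and 126 CPM in cells labelled WT, where the intervals of the last 3 groups overlapped. Cenpa stood at 82.0, 80.7, 107, 152 and 238 CPM in cells labelled cKO. Its values in cells labelled WT were 109, 108, 139, 109 and 278 CPM, of which the last lay outside the intervals of the others.

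**Figure D3:**
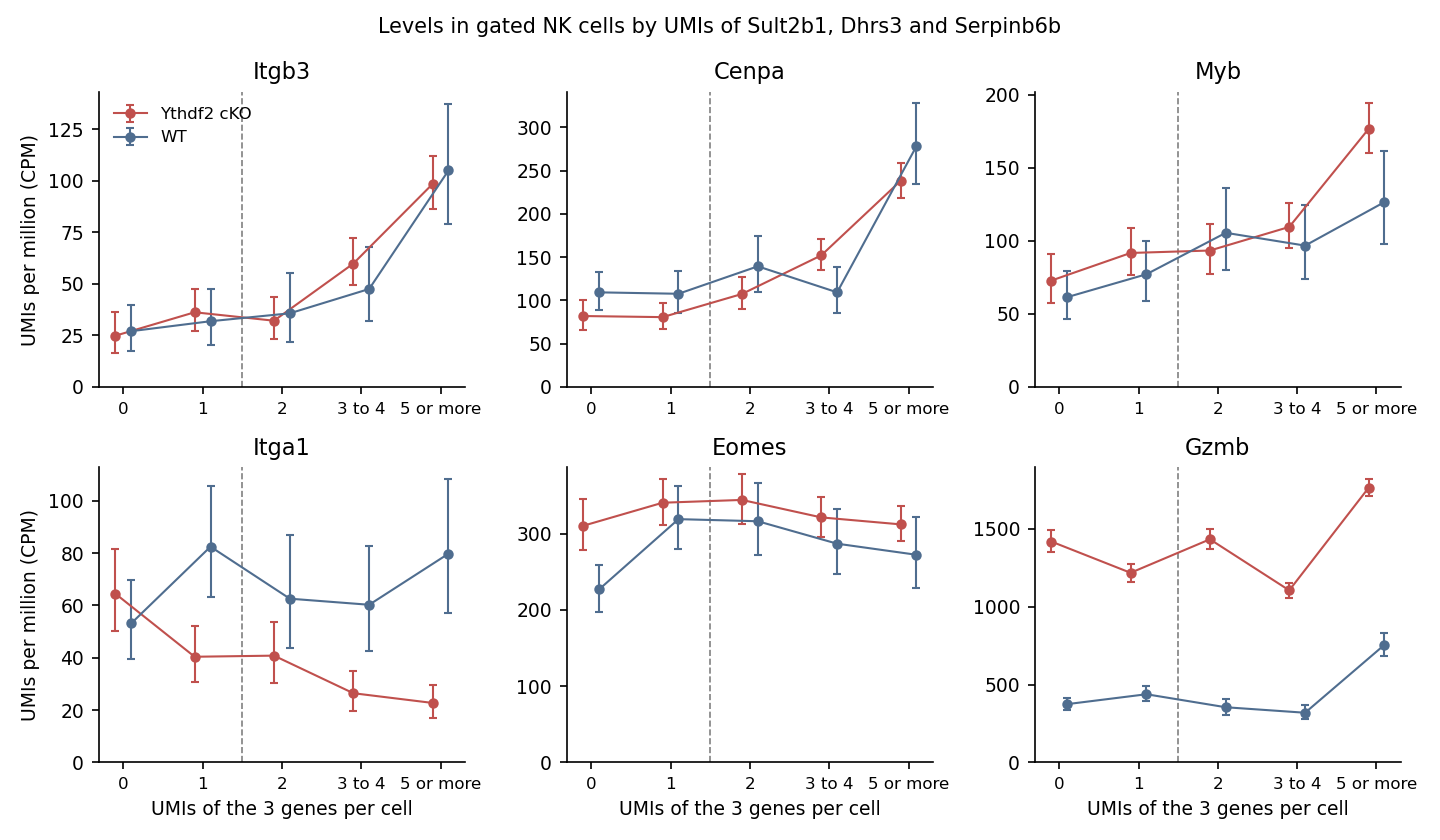
Level of 6 genes (CPM, with exact 95% Poisson limits) in gated NK cells grouped by their UMIs of Sult2b1, Dhrs3 and Serpinb6b, with members right of the dashed line. Itgb3 reaches 98.5 CPM (labelled Ythdf2 cKO) and 105 CPM (labelled WT) in cells with 5 or more UMIs, Itga1 is lowest in those cells in the library labelled Ythdf2 cKO alone, at 22.7 CPM, and Gzmb differs between the libraries in every group.

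Other genes past 1.5-fold in both libraries are given with their values after thinning, or with their levels in other cells. Top2a, the topoisomerase of dividing cells, stood at 72.3 against 36.1 CPM (labelled cKO) and 190 against 89.4 CPM (labelled WT), and its log2 ratios of 0.98 and 1.08 were 0.20 and 0.62 after thinning. Stmn1, which destabilises microtubules, had log2 ratios of 0.92 and 0.80, and -0.39 and -0.32 after thinning. Plac8 stood at 509 against 268 CPM and 353 against 227 CPM, while gated monocytes held 4649 and 3947 CPM of it. Cxcl10, a chemokine, had log2 ratios of 0.84 and 0.63 (0.46 and 0.55 without the melanocytic droplets), with 24.6% and 38.5% of its UMIs in member cells in 1 cell each. After thinning its log2 ratios were 0.56 and -0.92, and gated monocytes held 1901 and 920 CPM of it. Ccr7, the receptor that guides cells to lymph nodes, stood at 26.2 against 3.14 CPM and 24.1 against 5.84 CPM, and was found in 7.29% of member cells labelled cKO and 4.95% of those labelled WT. B cells held Ccr7 at 486 and 512 CPM, and the part of their RNA in this difference was not tested. Crtam, an adhesion receptor of activated NK and T cells, stood at 41.2 against 21.99 CPM and 44.0 against 17.5 CPM, and gated CD8 T cells held 40.0 and 51.1 CPM. Of the genes lower in member cells, Slfn5, which type I interferon induces, stood at 63.2 against 95.4 CPM and 28.2 against 60.2 CPM. After thinning its log2 ratios were -0.07 (labelled cKO) and -0.69 (labelled WT), and gated monocytes held 917 and 554 CPM of it.

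Most measured genes of the type I interferon, cytotoxic effector and transcription factor lists were within 1.5-fold between member and other gated NK cells. Of 28 listed type I interferon response genes, 26 were measured in the library labelled cKO and 2 were higher and 1 lower in member cells, with a median log2 ratio of 0.00. For cells labelled WT 21 were measured, 0 were higher and 4 lower, with a median of 0.05. Of 18 cytotoxic effector genes, 13 were measured in each library. Among cells labelled cKO 0 were higher and 1 lower, with a median of -0.03, and in the library labelled WT 2 were higher (Gzmc and Gzmf) and 0 lower, with a median of 0.08. Of 38 transcription factors of NK cells and innate lymphoid cells, 31 were measured in each library. None of them was past 1.5-fold in the library labelled cKO, and in the library labelled WT only Ikzf2, which encodes Helios, was higher, at 130 against 80.0 CPM. The medians over all genes measured were -0.01 in the library labelled cKO and -0.03 in the library labelled WT.

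Several tissue-resident and group 1 innate lymphoid genes were lower in member cells than in other gated NK cells of the library labelled cKO. Whether this differs from the library labelled WT was not tested. Of 34 listed, 25 were measured in the library labelled cKO, of which 0 were higher and 6 lower in member cells, with a median of -0.24 (-0.46 to 0.08). Among cells labelled WT 26 were measured, 0 were higher and 1 lower, with a median of -0.02. After thinning the medians were -0.18 in the library labelled cKO and -0.51 in the library labelled WT, so the order of the libraries depended on depth. Itga1 stood at 28.2 CPM in member cells against 50.7 CPM in other gated NK cells in the library labelled cKO, a log2 ratio of -0.82 (-1.19 to -0.50), and at 66.9 against 66.0 CPM in the library labelled WT. Tmem176a, which encodes an ion channel-like membrane protein, stood at 17.9 against 34.2 CPM and at 61.0 against 60.2 CPM. By UMIs of the chosen genes, Itga1 in the library labelled cKO stood at 64.5 CPM in cells with 0 and 22.7 CPM in cells with 5 or more, while the library labelled WT had 53.1 and 79.8 CPM.

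Some cell-cycle genes were higher in member cells at full depth. Of 32 listed, 16 were measured in the library labelled cKO and 5 were higher (Birc5, Cenpa, Mki67, Stmn1 and Top2a), with a median of 0.20 (-0.02 to 0.52). The library labelled WT had 28 measured, of which 13 were higher, with a median of 0.54 (0.12 to 0.98), and in neither library was any lower. After thinning, with fewer genes measured, the medians were -0.39 in the library labelled cKO and 0.026 in the library labelled WT. Mki67, the proliferation marker Ki-67, was found in 6.27% of member cells labelled cKO and 12.4% of those labelled WT, against 4.62% and 6.50% of other gated NK cells. Dividing cells held more UMIs, with medians of 20191.5 (labelled cKO) and 11717.5 (labelled WT) in cluster 11, which Mki67 and Ube2c defined. The part of that depth in their membership was not tested.

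The pathways of the 3 genes themselves differed little between member and other cells. Of 19 other clade B serpins, 3 passed the minimum level. Serpinb9, the inhibitor of granzyme B, stood at 456 against 414 CPM (labelled cKO) and 411 against 328 CPM (labelled WT), Serpinb6a at 25.3 against 21.2 CPM and 41.7 against 33.9 CPM, and Serpinb9b at 53.1 against 59.7 CPM and 48.7 against 25.1 CPM. Serpinb9b in the library labelled WT was the 1 serpin past 1.5-fold. Of 29 retinoid genes, 4 (labelled cKO) and 6 (labelled WT) were measured and none was past 1.5-fold. Rara, the retinoic acid receptor alpha, stood at 48.3 against 46.7 CPM and 45.2 against 50.2 CPM. Of 36 sterol synthesis, transport and sulfation genes, 20 were measured in the library labelled cKO, of which Fdps, a synthase of the isoprenoid branch, was higher at 26.9 against 16.5 CPM. For cells labelled WT 22 were measured and Dhcr7 alone was lower. Papss1, which makes the sulfate donor that Sult2b1 uses, stood at 15.01 against 14.1 CPM and 16.4 against 16.9 CPM.

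Glycolysis and hypoxia genes gave opposite values in the libraries, and the value in the library labelled WT rested on few droplets. Of 24 listed, 20 were measured in the library labelled cKO and 3 were higher (Hk2, Pgk1 and Tpi1), with a median of 0.33 (0.10 to 0.51). Cells labelled WT had 23 measured, of which 11 were lower, with a median of -0.49 (-0.79 to -0.23). Without the droplets that held at least 20 melanocytic UMIs, 0 of 20 were past 1.5-fold there and the median was 0.14, beside 0.32 in the library labelled cKO.

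Between the libraries, member cells labelled cKO had higher levels of many type I interferon-response genes and of Gzma, Gzmb and Prf1, and lower levels of many cell-cycle and tissue-residency genes, than those labelled WT. Of 6047 genes measured, 146 (2.41%) were at least 1.5-fold higher and 264 (4.37%) at least 1.5-fold lower in the library labelled cKO, and the median over all genes was -0.05. Median-of-ratios factors differed from this scaling by -0.10 on the log2 scale in member cells and by -0.11 in the other gated NK cells, and relative to them the split in member cells was 212 higher and 187 lower. In the other gated NK cells 176 of 6184 genes (2.85%) were higher and 542 (8.76%) lower. Without the melanocytic droplets 146 were higher and 223 lower in member cells, and 143 higher and 241 lower in the other gated NK cells. All these counts compare the same pair of libraries.

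Type I interferon genes were higher in member cells labelled cKO. Of 26 measured, 18 were past 1.5-fold upwards and 0 downwards, and the median log2 ratio was 0.80 (0.51 to 1.29). Irf7, which amplifies interferon production, stood at 113 CPM in member cells labelled cKO and 59.3 CPM in those labelled WT, and Zbp1, a sensor of Z-form nucleic acid, at 149 and 66.3 CPM. Usp18, which removes ISG15 from proteins, stood at 55.7 and 18.8 CPM, a log2 ratio of 1.52 (1.04 to 2.14). Single cells carried part of some values, since 1 cell held 36.9% of the Isg15 UMIs and 1 held 43.1% of the Rsad2 UMIs in member cells labelled cKO. In the other gated NK cells 17 of 25 type I interferon genes were higher and 1 lower, with a median of 0.78, so the size was like that in member cells. The median in member cells was 0.77 after thinning, and 0.55, under 1.5-fold, with both NK markers required. Of the genes higher in member cells, at least Irf7, Isg15, Rsad2 and Slfn5 lay under 0.2 of their level in another gated class.

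Interferon gamma response genes were also higher in member cells labelled cKO, in 7 of 19 measured, with 0 lower and a median of 0.51 (0.15 to 0.82). They included Cxcl10, Cxcl9, Gbp2, Gbp5, Irgm1 and Serpina3g, of which at least Cxcl10, Gbp2 and Irgm1 lay under 0.2 of their level in another gated class. Ifng itself stood at 230 and 302 CPM in member cells, and 1 cell held 42.6% of the UMIs in the library labelled WT. Of 22 genes of MHC class I and antigen processing, only H2-T23 was past 1.5-fold, and the median was 0.23. The interferon genes are higher in other cells of these libraries too. Gated macrophages held Irf7 at 623 CPM (labelled cKO) and 182 CPM (labelled WT), and the part of their free RNA in the member cells' values was not tested.

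Of the killing machinery, granzymes A and B and perforin were higher in member cells labelled cKO. Gzmb stood at 1463 CPM (1431 to 1496) in member cells labelled cKO and 462 CPM (430 to 495) in those labelled WT, a log2 ratio of 1.66 (1.56 to 1.77), and was found in 79.0% and 51.7% of them. Gzma stood at 6088 and 3635 CPM (log2 ratio 0.74), and Prf1, which encodes perforin, at 678 and 422 CPM (log2 ratio 0.68). The other gated NK cells gave log2 ratios of 1.70, 0.90 and 0.72 for Gzmb, Gzma and Prf1. Gzmc went the other way in member cells, at 501 and 1039 CPM, and was found in 16.2% and 13.6% of them, so few cells set its level. Of 13 measured cytotoxic effectors 3 were higher and 2 lower (Gzmc and Tnfsf10), with a median of 0.15. Among cytokines and chemokines Ccl5 stood at 6642 and 4207 CPM, and Xcl1, which attracts cross-presenting dendritic cells, at 1098 and 1274 CPM.

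Gated NK cells with a Gzmb UMI held a larger share of member cells than those without, beyond counting limits in the library labelled cKO. Member cells were 65.8% (62.7 to 68.8) of gated NK cells with a Gzmb UMI and 55.0% (49.2 to 60.8) of those without in the library labelled cKO. Among cells labelled WT they were 49.3% (43.8 to 54.7) and 40.6% (35.7 to 45.7), with overlapping intervals. Median depth did not differ much between these cells, at 5660 UMIs with Gzmb and 5742.5 without in the library labelled cKO, and at 3808 and 3660.5 in the library labelled WT. After thinning, Gzmb was found in 77.8% of member cells against 66.7% of other gated NK cells labelled cKO, and in 50% against 35.1% of those labelled WT. The Gzmb level had log2 ratios of member over other cells of 0.17 and 0.20. In member cells labelled WT 1 cell held 14.7% of the Gzmb UMIs. With 0, 1, 2, 3 to 4, and 5 or more UMIs of the chosen genes, Gzmb stood at 1419, 1218, 1433, 1105 and 1764 CPM in cells labelled cKO. Cells labelled WT gave 374, 438, 354, 319 and 755 CPM. The level was thus highest in the last group but did not rise steadily.

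**Figure D4:**
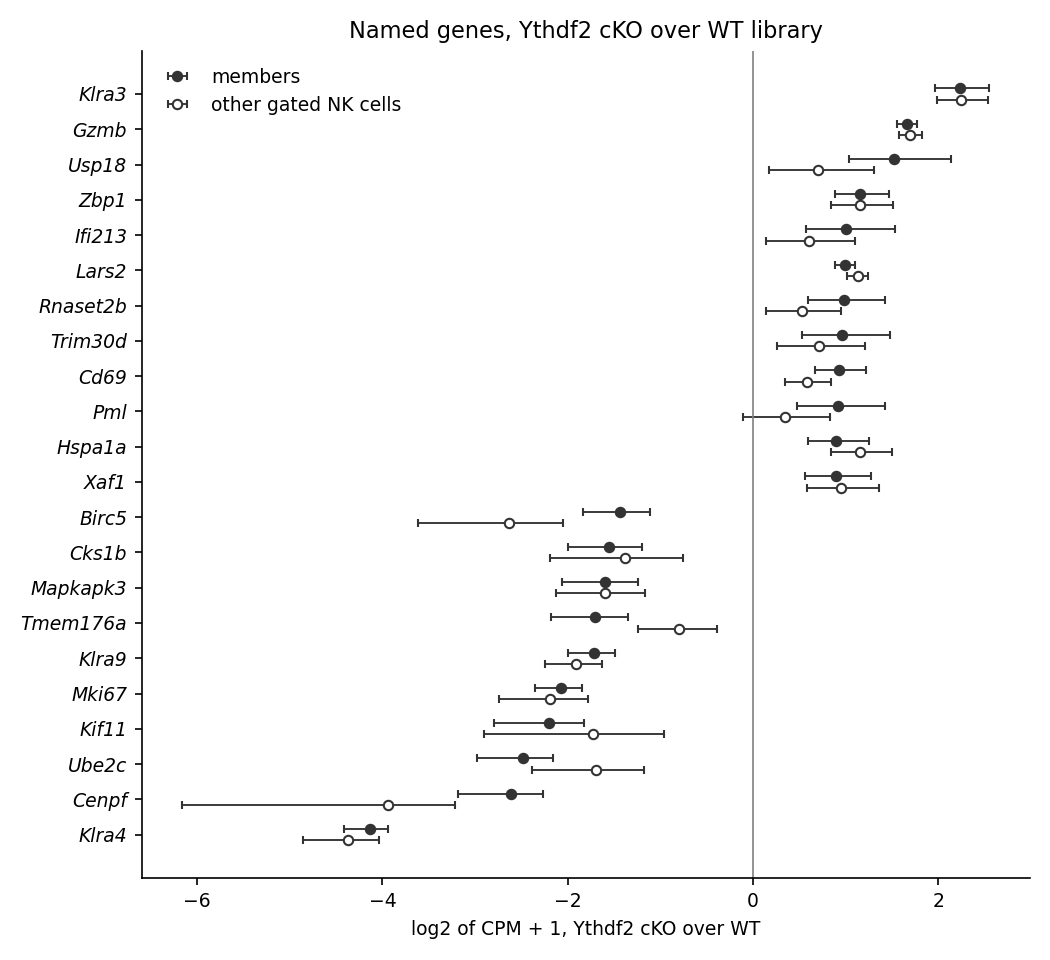
Log2 ratio of Ythdf2 cKO over WT library (CPM plus 1, with exact 95% counting limits) for the named genes other than Cck and Klra8, in member cells (filled) and other gated NK cells (open). The filled and open points lie close together for Klra3 (2.23 and 2.24), Gzmb (1.66 and 1.70) and Klra4 (-4.13 and -4.37).

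Several Klra genes, which encode Ly49 receptors, differed widely between the libraries. The Klra cluster holds near-identical paralogs whose number and sequence differ among inbred mouse strains, so reads may be shared among them and each value is uncertain. Klra3 stood at 296 CPM in member cells labelled cKO and 62.2 CPM in those labelled WT, and was found in 48.7% and 13.6% of cells. Klra8, which encodes the activating receptor Ly49H, had 2 UMIs in member cells labelled cKO and 478 UMIs (281 CPM, in 35.9% of cells) in those labelled WT, with counting limits of the log2 ratio from -12.63 to -7.72. Klra4 stood at 32.2 and 580 CPM, a log2 ratio of -4.13 (-4.41 to -3.94), and Klra9 at 46.3 and 155 CPM. Klra7 was alike, at 280 and 330 CPM. The other gated NK cells gave 2 UMIs of Klra8 in the library labelled cKO and 716 in the library labelled WT. Both libraries are labelled C57BL/6, and the genetic background of the mice was not tested.

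Tissue-residency genes were lower in member cells labelled cKO, in 12 of 26 measured, with 1 higher (Cd69) and a median log2 ratio of -0.54 (-0.85 to -0.27). Itga1 stood at 28.2 and 66.9 CPM (log2 ratio -1.22), Tmem176b at 27.1 and 75.1 CPM, and Il7r, the interleukin-7 receptor, at 19.6 and 44.6 CPM. Cish, a feedback inhibitor of cytokine signalling, stood at 41.2 and 89.2 CPM. Cd69, which retains activated lymphocytes in tissue and which interferon induces, stood at 143 and 74.5 CPM. In the other gated NK cells 7 of 25 residency genes were lower and 1 higher, with a median of -0.22, and after thinning the median in member cells was -0.11. Of 25 circulating NK cell genes, 6 were higher (among them Cma1, Gzma, Klra3, Prdm1 and Prf1) and 5 lower (Klra4, Klra8, Klra9, Klre1 and S1pr1), with a median of 0.08. Of the transcription factors, Prdm1 (Blimp-1) was higher, at 36.6 and 19.9 CPM, and Tcf7 (TCF-1) lower, at 146 and 226 CPM.

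Cell-cycle genes were lower in member cells labelled cKO, in 20 of 28 measured with 0 higher, with a median log2 ratio of -0.88 (-1.44 to -0.55). Mki67 stood at 41.2 and 177 CPM, Top2a at 72.3 and 190 CPM, and Cenpf, a kinetochore protein, at 11.2 and 73.4 CPM. In the other gated NK cells 14 of 26 were lower and 1 higher, with a median of -1.23. After thinning, the median in member cells was -0.23, while the log2 ratio of Mki67 was -1.88. The median was -0.51 with each cell weighted equally and -1.57 with 2 of the 3 genes detected. Without cells holding Trac, Cd8a or Cd8b1 UMIs it was -1.77. Mki67 was found in 49 member cells labelled cKO and 40 labelled WT, and Cenpf in 18 and 19, with 42.6% and 19.2% of its UMIs in 1 cell each. Cenpa, which member cells had more of than other gated NK cells, was alike between the libraries, at 178 and 170 CPM.

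**Figure D5:**
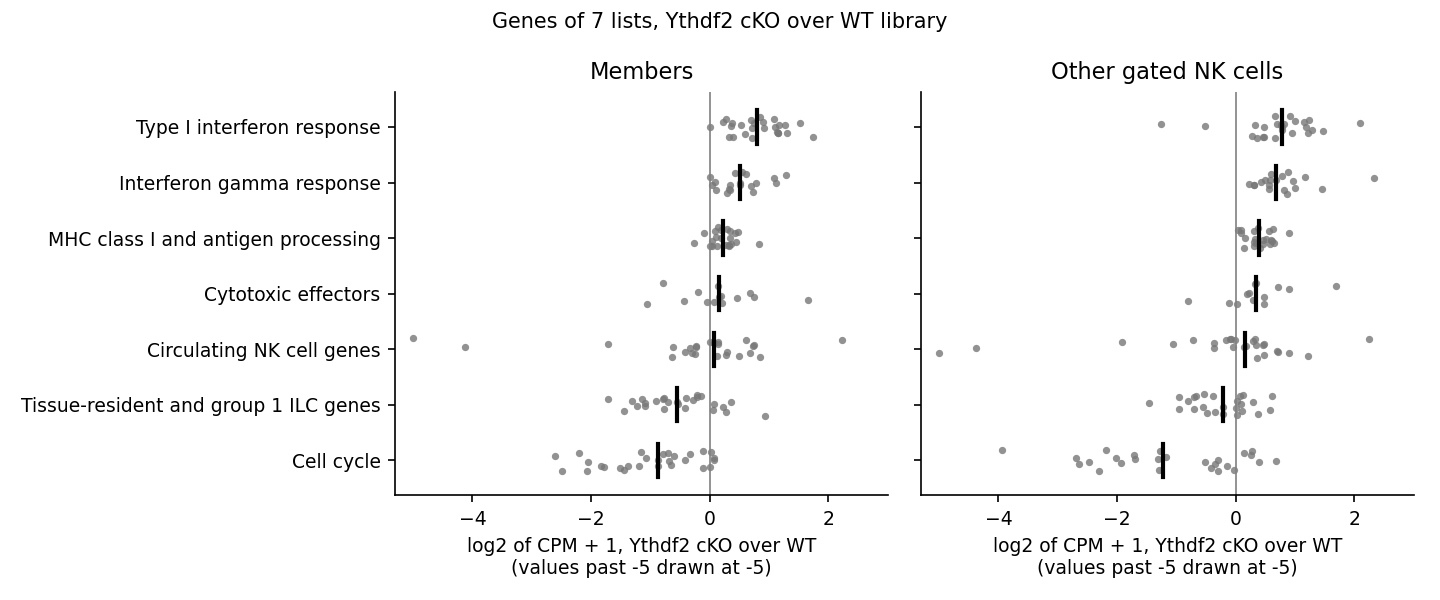
Log2 ratio of Ythdf2 cKO over WT library (CPM plus 1) of each measured gene of 7 lists (points) with the list's median (black line), in member cells (left panel) and other gated NK cells (right panel). The type I interferon median is 0.80 in member cells and 0.78 in other gated NK cells, and the cell cycle median is -0.88 and -1.23.

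Genes of the retinoid, sterol and serpin lists did not separate the libraries. Of 5 measured retinoid genes 0 were past 1.5-fold, with a median of -0.06. Of 21 sterol genes 1 was lower (Nceh1), with a median of -0.12. Of 3 measured serpins Serpinb6a was lower, at 25.3 CPM in member cells labelled cKO and 41.7 CPM in those labelled WT. Of 13 m6A readers, writers and erasers 0 were past 1.5-fold, with a median of 0.05. Of 17 activating receptor genes only Klrc2 was lower, and of 6 inhibitory receptor genes 0 were past 1.5-fold, with medians of -0.07 and -0.26. Lars2, which encodes the mitochondrial leucyl-tRNA synthetase, stood at 995 CPM in member cells labelled cKO and 501 CPM in those labelled WT. Cck was listed by the rule for named genes at 0 CPM in member cells labelled cKO and 271 CPM in those labelled WT, and 98.9% of the UMIs came from 1 droplet.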

How the data were processed

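The authors deposited 2 matrices of UMI counts, genes by barcodes, made with Cell Ranger 5.0.1 and Seurat 4.0.4 on mm10, per the submitters' processing notes. Per the file headers the pipeline was cellranger 5.0.0. Options and gene models of the counting are not given in the sources. Coordinates are those of GENCODE vM21 on GRCm38, which held 30934 of the 31053 gene identifiers.

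The members and gene lists were chosen with earlier results of these data known. UMIs were summed per cell group and library, scaled to CPM and compared as log2 ratios with a pseudocount of 1 CPM, for genes with at least 20 CPM in either sum and 20 UMIs over both. A gene was counted as higher or lower at 1.5-fold, which is a size and not a test. Ratio limits are exact conditional binomial limits, limits of CPM are Poisson limits, limits of shares are Clopper-Pearson limits, and those of a list's median are the medians of its genes' limits. A share of 0 was limited by 3 counts. Named genes were the 12 furthest from 0 on each side with at least 50 CPM and 50 UMIs, and for member over other cells those past 1.5-fold the same way in both libraries. Genes of the gate, mitochondrial, ribosomal, haemoglobin, antigen receptor segment and sex-linked genes, unnamed gene models and, between libraries, genes under 0.2 of their level in another gated class were left out. Genes outside that rule and the lists, such as Ccr7 and Crtam, and the gates of the other cell classes were chosen after values were seen.

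Kept cells of at least 2746 UMIs, the percentile 20 of gated NK cells in the shallower library, were thinned to it without replacement. The gate was then applied anew to all of them. Gated NK cells were clustered with scanpy 1.11.5 (2000 variable genes without those of the rule, 30 components, 15 neighbours, Leiden resolution 1). Doublets were kept. Scrublet's own threshold called 0 barcodes labelled cKO and 2 labelled WT and had not worked, so removal of the highest scores at 0.8% per 1000 cells (779 and 1187 barcodes, 16 and 5 of them member cells) was an alternative. Scripts ran in Python 3.11.15 with numpy 2.4.6, pandas 2.3.3, scipy 1.17.1 and matplotlib 3.10.9 and were tested on simulated data. Member cells held 5462614 UMIs (labelled cKO) and 1703969 (labelled WT), with medians of 6042.5 and 4205 per cell, so counting limits are wider for cells labelled WT. Some genes of the lists are counted but not reported here by name.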

Additional observations from a re-analysis of the deposited data

Results flagged for a closer look

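The melanocytic markers moved in opposite directions in the 2 libraries when member cells were set against other gated NK cells. The median log2 ratio of member over other cells was 2.28 in the library labelled cKO (3 genes measured) and -1.38 in the library labelled WT (9 genes measured). The difference between the libraries was not tested. Of the UMIs of 5 of these genes in member cells, 676 of 723 (labelled cKO) and 1365 of 1520 (labelled WT) came from 1 droplet each. Without droplets of at least 20 such UMIs no marker passed the minimum level in the library labelled cKO, and the median was 0.079 over 4 genes in the library labelled WT.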

How the results depend on the processing

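Of 47 named gene results under the alternatives, 696 of 705 values had the sign of the reported one and 656 were past 1.5-fold, and 59 moved by more than 1.5 times. Of 8 list medians past 1.5-fold, 107 of 114 values had the same sign and 92 were past it. The share of member cells among gated NK cells depended on the 3-gene condition and on depth. Its log2 ratio of cKO over WT library was 0.26 with at least 1 UMI, 0.75 with at least 3, 0.82 with 2 of the 3 genes detected and 0.11 after thinning. Among kept cells the log2 ratio of 1.58 became 1.33, 1.83 and 1.90 under these conditions, 1.22 after thinning and 1.87 with Ncr1 and Klrb1c both required.

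Counts of genes past 1.5-fold moved most. In member cells of the cKO over the WT library, the 146 higher became 309 with 2 of the 3 genes, 531 after thinning, 87 with a pseudocount of 10 CPM and 1346 with no filter on low values. The 264 lower became 579, 640, 161 and 2195 under these settings, and 407 with both NK markers. For member over other cells in the library labelled cKO, the 78 higher became 175 with at least 1 UMI, 202 after thinning, 135 with both NK markers, 40 with the larger pseudocount and 1501 with no filter. The 51 lower became 147, 302, 85, 11 and 686, and 81 without cells holding Trac or Cd8 UMIs. In the library labelled WT, the 153 higher became 273, 469, 332, 69 and 1860, and 258 with 2 of the 3 genes. The 332 lower became 533, 658, 547, 182 and 2856, and 205 without melanocytic droplets and 211 without melanocytic or myeloid droplets. The last 2 settings were chosen after seeing the data. Fewer cells and UMIs remained under the stricter and thinned settings, and the other causes were not tested.

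Reversed values were few. The melanocytic median of cKO over WT library in member cells was 0.19 at 5% mitochondrial UMIs and 0.30 without doublets. The same median of member over other cells was -3.20 with 2 of the 3 genes in the library labelled cKO, and 0.16 after thinning and 0.079 without melanocytic droplets in the library labelled WT, where the monocyte median was 0.036 without doublets. Member over other cells, Stmn1 was -0.052 with 2 of the 3 genes and -0.39 after thinning in the library labelled cKO, and -0.32 after thinning in the library labelled WT. Cxcl10 was -0.067 with 2 of the 3 genes in the library labelled cKO, and -0.71 with at least 3 UMIs, -0.33 with 2 of the 3 genes and -0.92 after thinning in the library labelled WT. Slfn5 was 0.16 with at least 1 UMI in the library labelled WT. The cause was not tested. No paired analysis was possible because each genotype had 1 library, so no replicate could be left out either.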

Other observations

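Lists that the account above leaves aside differed little between the libraries in member cells. Of 23 measured genes of interleukin-2, interleukin-15 and STAT5 signalling, 2 were at least 1.5-fold higher in the library labelled cKO (Myc and Pim1) and 2 lower (Cish and Il7r), with a median log2 ratio of 0.09. Of 15 TGF-beta response genes, Pmepa1, a feedback inhibitor of the pathway, was higher at 133 CPM in member cells labelled cKO and 85.7 CPM in those labelled WT. Cdkn1a and Itga1 were lower, and the median was 0.15. Of 20 glycolysis and hypoxia genes only Vegfa was higher, at 282 and 180 CPM, with a median of 0.15.

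Of 22 dissociation stress genes 3 were higher in member cells labelled cKO (Hspa1a, Hspa1b and Hsph1) and 0 lower, with a median of 0.16. Hspa1a, which encodes an inducible chaperone, stood at 100.5 CPM in member cells labelled cKO and 53.4 CPM in those labelled WT, and its log2 ratio was 0.90 in member cells and 1.15 in other gated NK cells. After thinning its log2 ratio in member cells was 0.45, under 1.5-fold, and 1 member cell labelled WT held 30.8% of its UMIs in that group. The 13 markers of group 2 and 3 innate lymphoid cells summed to 14.1 CPM in member cells labelled cKO and 22.3 CPM in those labelled WT, with 6 and 8 of the genes at 0.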
